A study of Rattus norvegicus with 8 samples.

Results

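Hepcidin and the genes of liver iron handling were followed in liver RNA-seq libraries from rats on 2 diets. The genes were chosen by name as Hamp, Bmp6, Tfr2, Tfrc, Tf, Slc40a1, Cp, Fth1 and Ftl1, and the entries of the gene table that carry these names were taken. Of these 9 genes, 8 were matched in a table of 32545 genes, and Slc40a1, which encodes the iron exporter ferroportin, was not analysed here. All rats were wild type Sprague-Dawley, an outbred strain, at an age given as about 22 weeks. The normal diet (ND) group ate chow with 8.5% of calories from fat, 59.6% from carbohydrate and 20.3% from protein. The high fat diet (HFD) group ate 41% fat, 43% carbohydrate and 17% protein. The time on the diet is given as 24 weeks for both groups, longer than the stated age, and this was not resolved. Of the 12 rats on each diet, 3 ND and 5 HFD livers are represented, with 1 library for each sample. The labels describe no pooling and give no iron content of either diet.

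Hepcidin, the product of Hamp, is a peptide hormone that the hepatocyte secretes and that makes ferroportin degrade, so that less iron enters the blood. Iron raises Hamp transcription through bone morphogenetic proteins, mainly BMP6 and BMP2 from the sinusoidal endothelium, and through HFE and transferrin receptor 2 on the hepatocyte, while inflammation raises it through interleukin 6 and STAT3. Transferrin carries iron in the blood, transferrin receptor 1 (Tfrc) takes it into cells, ceruloplasmin oxidises it on its way out, and ferritin, built of heavy (Fth1) and light (Ftl1) chains, stores it. Iron regulatory proteins act on the mRNA of Tfrc, which they stabilise, and on those of the ferritins, whose translation they block, so that mRNA level and protein need not move together.

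The hepcidin promoter is shown because both signals are known to reach it, in human and mouse, through short elements. Below are the 250 bases before the transcription start of rat Hamp from RefSeq (build GRCr8, minus strand, chr1:95300272-95300521), with capitals marking the letters GGCGCC, the BMP response element, and a match to TTCNNNGAA, the letters of a STAT site.
Hamp: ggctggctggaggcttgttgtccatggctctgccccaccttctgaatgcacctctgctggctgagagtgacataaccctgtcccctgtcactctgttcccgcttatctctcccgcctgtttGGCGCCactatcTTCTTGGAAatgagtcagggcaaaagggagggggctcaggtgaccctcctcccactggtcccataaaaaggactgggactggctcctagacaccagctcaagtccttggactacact
GGCGCC lies at positions -129 to -124 and TTCTTGGAA at -117 to -109, counted from the start. Promoters of 7 of the 9 genes were matched in this RefSeq table. Tfrc was the other one with GGCGCC, at -118 to -113 on the minus strand of chr11:81690421-81690446, shown here with 10 bases on either side.
Tfrc: ctgccgccttGGCGCCttttctctcc
Both motifs were searched in the 250 bases upstream, and each reads the same on both strands. They do not overlap each other in Hamp. Among 33469 rat promoters, 8.69% held GGCGCC, 7.67% held TTCNNNGAA and 0.379% held both. These are matches of letters only.

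Libraries held 12678616 to 36152937 counts and fell into a deeper set of HFD-1, HFD-2, ND-1 and ND-3 (at least 30501673 counts) and a shallower set of HFD-3, HFD-4, HFD-5 and ND-2 (at most 18401981 counts). Each set holds both diets, but ND-2 is the lone ND library of the shallower one. The hepatocyte markers, 10 of 10 found and led by Alb, summed to 59935 to 66944 FPKM (fragments scaled by gene length and library total), in keeping with the liver label. No marker of another liver cell type was at 0 in all libraries. ND-3 stood apart in genes of the circadian clock: Arntl was at 13.5 FPKM there and at 0.384 to 1.57 FPKM elsewhere. In bulk liver, fewer cells of a type and less RNA per cell cannot be told apart.

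No iron gene passed the test between the diets. By edgeR's quasi-likelihood test, 0 of 8 passed at an adjusted p under 0.05, where 0.00707% of 14148 tested genes (1 gene, Fer1l5) passed. At an unadjusted p under 0.05 there was 1 of 8, Ftl1, against 5.71% of all genes. Of the 8, 4 were higher and 4 lower in fitted value on HFD, and their median log2 fold change was 0.04, beside 0.01 over all tested genes. Ftl1, the light chain of ferritin, was higher in every HFD library than in every ND library, as were 2.25% of tested genes. Among 8 genes, 1 such gene does not set them apart. Hepcidin ranged widely between rats on the same diet. DESeq2 also called 0 of the 8, where it called 0.708% of 17807 genes.

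**Figure D1:**
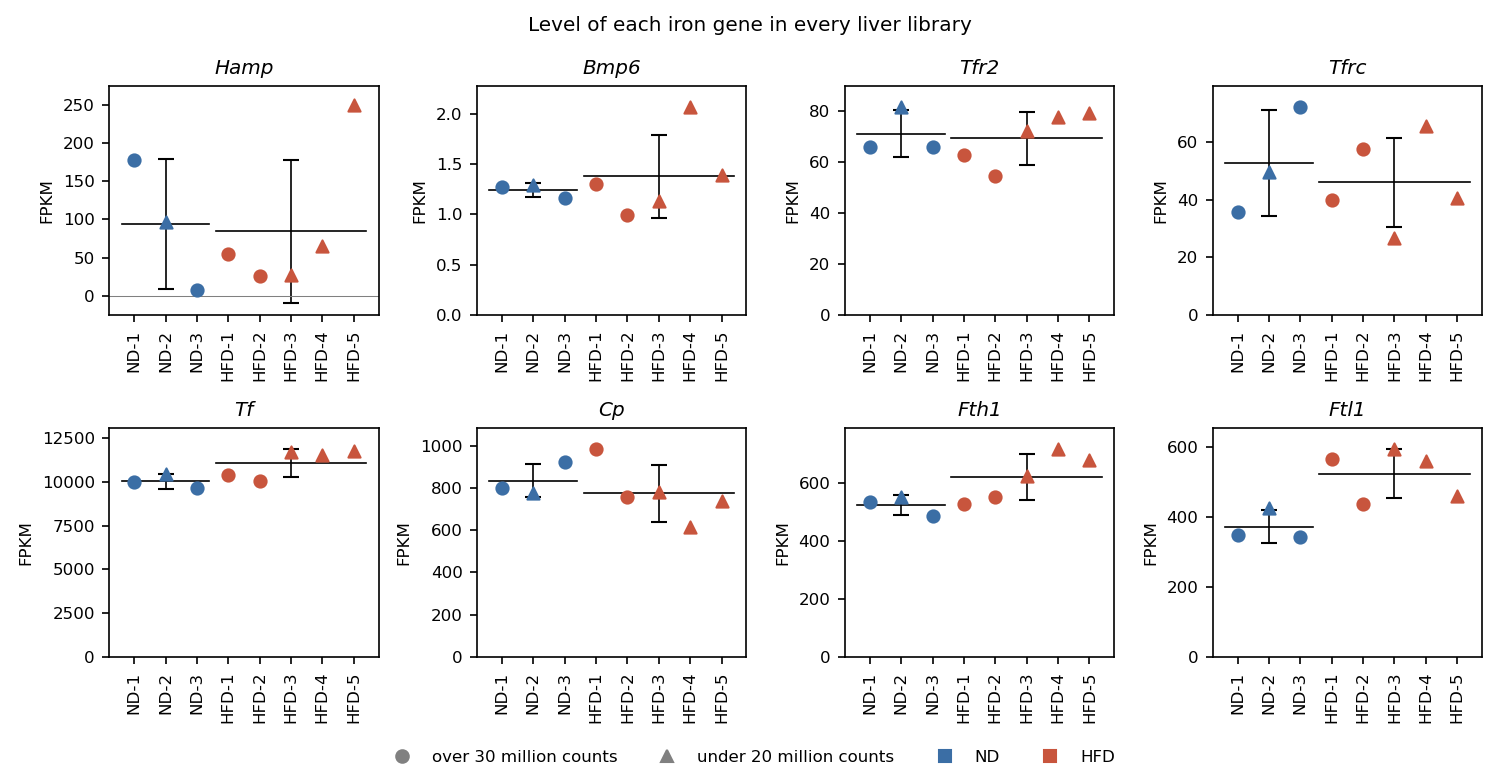
FPKM of each iron gene (vertical axis, linear) in the 3 ND and 5 HFD libraries (horizontal axis). Blue is ND, red is HFD, circles are the deeper and triangles the shallower libraries, and bars give the mean ± SD of each diet. Ftl1 is the panel in which every HFD point lies above every ND point, and Hamp runs from 7.56 to 249.4 FPKM with both diets spread over most of it.

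**Figure D2:**
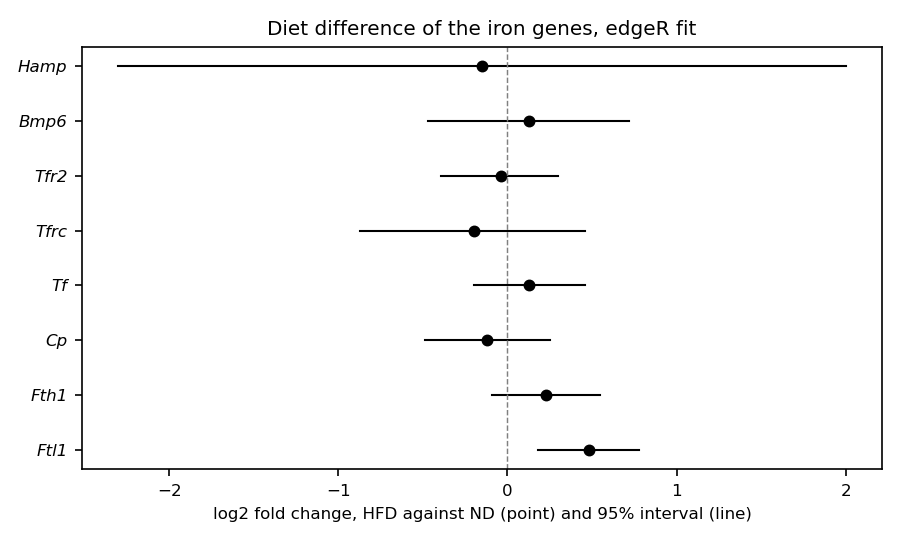
Log2 fold change of HFD against ND for each iron gene from the edgeR fit (point) with its 95% interval (line), not adjusted for multiple tests. The Ftl1 interval, 0.18 to 0.78, is the one that does not reach 0, and the Hamp interval, -2.3 to 2.0, is the widest.

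Hepcidin varied more between rats on one diet than between the diets. Hamp (ENSRNOG00000021029, Rnor_6.0 chromosome 1, 89368021 to 89369960) was at 178 FPKM in ND-1, 96.0 in ND-2 and 7.56 in ND-3. On HFD it was at 54.4 FPKM in HFD-1, 25.5 in HFD-2, 27.0 in HFD-3, 64.8 in HFD-4 and 249 in HFD-5. The lowest and the second highest library were therefore both ND, and the highest was HFD. The ratio of the highest to the lowest library was 33.0. Counting error is small beside this: the 83 counts in ND-3 give an exact 95% Poisson interval of 6.02 to 9.37 FPKM, and the 1652 counts in HFD-5 one of 237.5 to 262 FPKM. Such intervals cover counting error only.

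Means were 93.9 ± 85.3 FPKM (SD, n = 3) on ND and 84.2 ± 93.9 FPKM (SD, n = 5) on HFD. The log2 fold change was -0.15 ± 0.96 (SE, adjusted p = 0.998 by edgeR), with a 95% interval from -2.3 to 2.0. A change of 3.99-fold up or one to 0.203 of the ND level thus lies within what 8 libraries could not tell from none. The difference of mean log2 CPM (counts scaled by library total) had the opposite sign, 0.15. Single rats set the sign: the log2 fold change was -1.18 without HFD-5 and -0.70 without ND-3, but 0.81 without ND-1, 0.09 without HFD-2 and 0.07 without HFD-3. Within the depth sets the difference of mean log2 CPM was -0.05 in the deeper and -0.28 in the shallower libraries. With the depth set as a term in the edgeR fit, the log2 fold change was -0.67.

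The spread of Hamp was unusual for a liver gene. The SD of log2 CPM between libraries of the same diet was 1.78, larger than that of 99.4% of the tested genes. Tfrc came next among the iron genes, with an SD of 0.496, larger than that of 80.4% of genes. Bmp6 followed at 0.322, while Tf, at 0.112, varied less than most, with 6.28% of genes below it. Fth1, Ftl1, Cp and Tfr2 lay between 0.166 and 0.218.

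**Figure D3:**
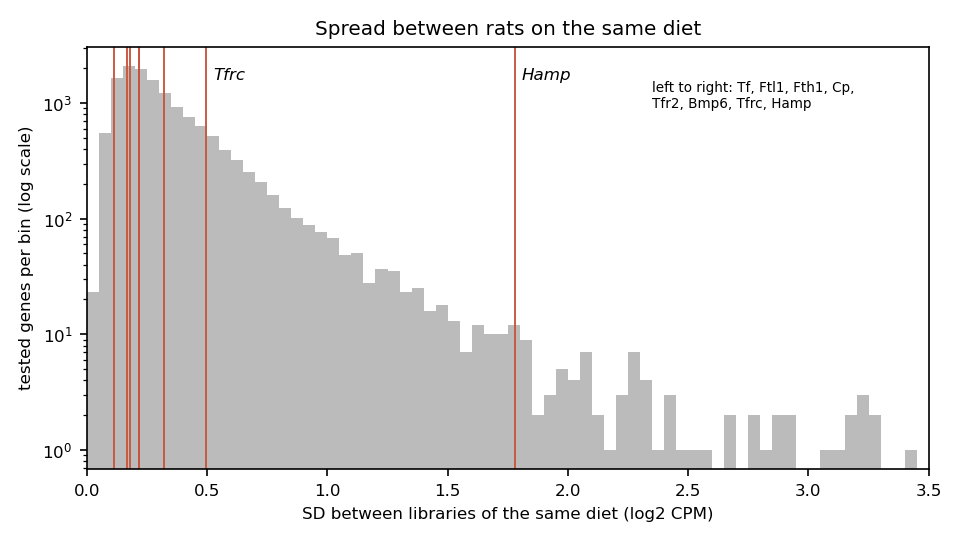
Number of tested genes (vertical axis, log scale) by the SD of log2 CPM between libraries of the same diet (horizontal axis), with red lines at the 8 iron genes. Hamp lies at 1.78 in the sparse right tail, Tfrc at 0.496, and the other genes lie in the bulk of the distribution.

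ND-3, the library with the lowest Hamp, was also the library with the highest Tfrc, 72.2 FPKM. It had the highest summed level of erythroid markers too, 2049 FPKM, against 660 in ND-1, 876 in ND-2 and 1083 to 1853 in the HFD libraries. This list, found for 11 of 12 genes, is led by the globin genes Hbb (712 FPKM in ND-3 and 230.0 to 685.5 elsewhere) and Hba1, whose reads cannot be told apart from those of near-identical globin copies. HFD-5, with the highest Hamp, was at 1120 FPKM for this sum and at 40.4 FPKM for Tfrc. HFD-3, at 1853 FPKM the nearest to ND-3 for this sum, had the lowest Tfrc of all libraries, 26.75 FPKM. From high to low, HFD-3 ranked 6 of 8 for Hamp. The part of erythroid RNA, or of the clock genes that set ND-3 apart, in the Hamp values was not tested.

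By a likeness measure over the 8 libraries, the genes nearest to the Hamp pattern were Gemin6, Serhl2, Ednra, Ildr2 and Ccdc77. The measure was the mean absolute difference of centred log2 CPM, and it ran from 0.677 for Gemin6 to 0.73 for Ccdc77 among 11508 candidates. A gene with the same level in every library would score 1.25, so none followed Hamp closely. For Tfrc the nearest were Tnfsf13, Pigl, Fam149a, Btg3 and Fastkd1, at 0.131 to 0.164 where a level gene would score 0.369. Fam149a went from 4.26 to 11.4 FPKM and, like Tfrc, was highest in ND-3.

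Bmp6, the ligand that reports liver iron, was a low transcript in whole liver. Bmp6 (ENSRNOG00000013717, chromosome 17, 26955142 to 27112820) was at 1.27, 1.30 and 1.16 FPKM in ND-1 to ND-3, and at 1.30, 0.992, 1.14, 2.07 and 1.39 FPKM in HFD-1 to HFD-5. The 3 ND libraries fell inside the HFD range, and HFD-4 was highest. Its counts, 23 to 70 per library, were the fewest of the iron genes, so that counting error weighs most on Bmp6. HFD against ND gave a log2 fold change of 0.13 ± 0.26 (SE, adjusted p = 0.993 by edgeR), and -0.05 without HFD-4. It was -0.15 within the deeper and 0.25 within the shallower libraries, as differences of mean log2 CPM, and 0.02 with the depth set as a term in the fit. Markers of sinusoidal endothelium, the cells that make most BMP6 in mouse liver, summed to 118.5 to 136 FPKM on ND and 126 to 145 FPKM on HFD, with 11 of 12 genes found.

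Other genes that act on hepcidin were read from a list of hepcidin control, which also holds target genes of BMP signalling. Of 24 listed receptors, ligands, SMADs, inhibitors, cytokine genes and target genes, 23 were tested. By edgeR 0 of the 23 passed, where 0.00707% of all tested genes did, and 0 had an unadjusted p under 0.05, where 5.71% did. DESeq2 also passed 0, against 0.708%. With so few calls over all genes, counts of 0 in a list of this size do not set it apart. Fitted values were higher for 13 and lower for 10, and the median of log2 fold changes was 0.02. The 3 with the smallest p were Il6st, Smad7 and Hfe. Il6st, the signalling subunit of the interleukin 6 receptor, was at 97.5 ± 8.41 FPKM (SD, n = 3) on ND and 82.6 ± 6.06 (SD, n = 5) on HFD (log2 fold change -0.25 ± 0.12, adjusted p = 0.9225 by edgeR). Smad7, an inhibitor of BMP signalling that this signalling itself induces, was at 1.98 ± 0.409 and 2.42 ± 0.436 FPKM. Hfe, whose loss causes hemochromatosis in humans, was at 11.1 ± 1.69 and 12.5 ± 1.00 FPKM.

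All tested genes of this list varied less between rats than Hamp, whose SD of log2 CPM within a diet was 1.78. The largest such SDs were those of Bmp4 (0.837, at 5 to 43 counts), Socs3 (0.65), Smad6 (0.614) and Il6r (0.61). Il6r, the interleukin 6 receptor, ranged from 24.9 to 75.5 FPKM. Tmprss6, a hepatocyte protease that cuts hemojuvelin and lowers hepcidin, ranged from 81.2 to 136 FPKM. Hemojuvelin, a BMP co-receptor listed as Hfe2, ranged from 16.7 to 30.9 FPKM and was highest in ND-3. Fgl1, which encodes a liver-secreted antagonist of BMP6 in mice, ranged from 226 to 351 FPKM. Fam132b, the gene of the erythroid hormone erythroferrone, had at most 2 counts in any library and was not tested.

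Chosen after their values were seen, the BMP target genes Id1, Smad7 and Atoh8 were each highest in HFD-5, the library with the highest Hamp. Id1 was at 3.46 FPKM there and at 1.54 to 3.30 FPKM in the other libraries. Smad7 was at 3.05 FPKM against 1.54 to 2.70 FPKM, and Atoh8 at 5.90 against 3.70 to 5.45 FPKM. Smad6, another BMP target of the same list, was not highest there, at 3.01 FPKM in HFD-5 and 3.24 in HFD-3, which ranked 6 of 8 for Hamp. In ND-3, with the lowest Hamp, Smad7 was lowest, but Id1 at 2.57, Atoh8 at 4.003 and Smad6 at 1.36 FPKM were not. HFD-5 is a shallower and ND-3 a deeper library. Smad6 separated the depth sets, at 0.888 to 1.60 FPKM in the deeper and 2.67 to 3.24 FPKM in the shallower, as 16% of tested genes do. Id1, Smad7 and Atoh8 overlapped between the sets. The part of the depth set in these values was not tested.

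**Figure D4:**
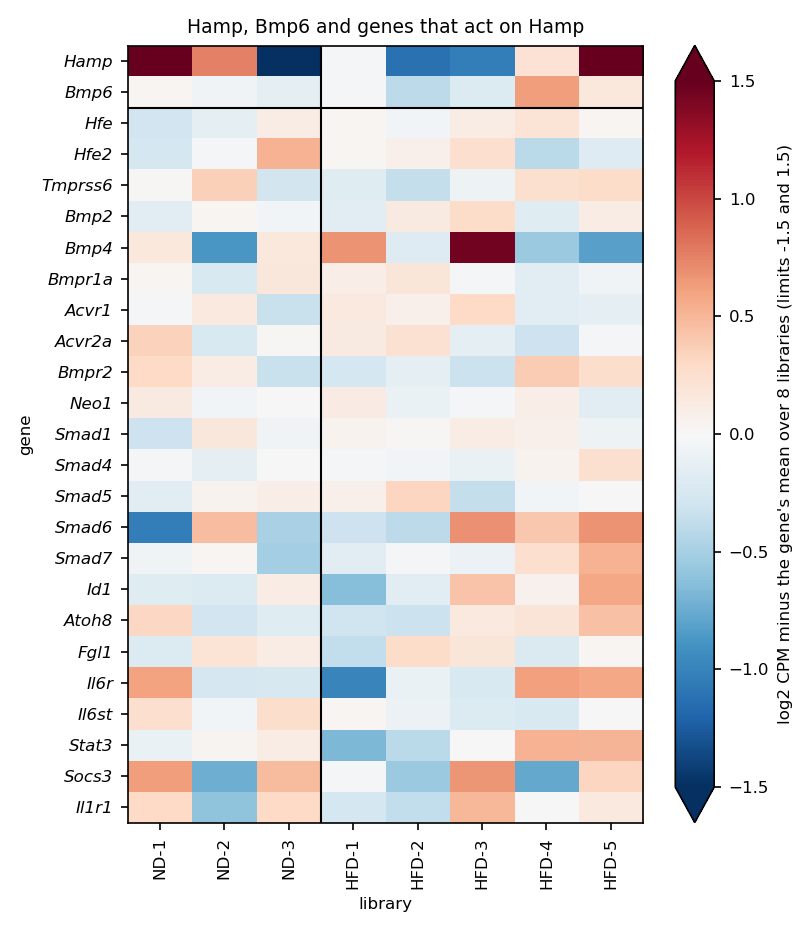
Level of Hamp, Bmp6 and the 23 tested genes of the hepcidin control list (vertical axis) in each library (horizontal axis). Values are log2 CPM minus the gene's mean over the 8 libraries. Red is above and blue below the mean, and Hamp passes both ends of the scale, from -2.81 in ND-3 to 2.26 in HFD-5, while most other genes stay pale.

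Transferrin receptor 2, the iron sensor of the hepatocyte, had similar mean levels on both diets. They were 71.1 ± 9.12 FPKM (SD, n = 3) on ND and 69.2 ± 10.4 FPKM (SD, n = 5) on HFD. Tfr2 (ENSRNOG00000001407, chromosome 12, 22177382 to 22194299) was at 65.7, 81.6 and 66.0 FPKM in ND-1 to ND-3, and at 62.8, 54.6, 72.0, 77.7 and 79.1 FPKM in HFD-1 to HFD-5. The diets overlapped, but the depth sets did not: the 4 deeper libraries lay between 54.6 and 66.0 FPKM and the 4 shallower between 72.0 and 81.6 FPKM. Among all tested genes 16% separate the depth sets in this way. Between the diets the log2 fold change was -0.04 ± 0.16 (SE, adjusted p = 0.993 by edgeR), and it was 0.03 without ND-2 and 0.04 without HFD-2. Within the deeper libraries the difference of mean log2 CPM was -0.23 and within the shallower -0.04, and the depth set term gave -0.15 (adjusted p = 0.869 by edgeR).

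Transferrin receptor 1, which most cells use to take up iron, ranged widely on both diets. Tfrc (ENSRNOG00000001766, chromosome 11, 71397383 to 71419223) was at 35.8, 49.7 and 72.2 FPKM in ND-1 to ND-3, and at 39.9, 57.6, 26.7, 65.4 and 40.4 FPKM in HFD-1 to HFD-5. The highest library was ND and the lowest HFD, with the others mixed. The log2 fold change was -0.20 ± 0.30 (SE, adjusted p = 0.993 by edgeR), with an interval from -0.87 to 0.46. It was 0.10 without ND-3. Tfrc exceeded Tfr2 in ND-3 and HFD-2 alone, where the ratio of their FPKM was 1.09 and 1.06; elsewhere it was 0.371 to 0.842.

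Transferrin was the most abundant of these transcripts. Tf (ENSRNOG00000030625, chromosome 8, 111673547 to 111721333) was at 9980, 10484 and 9659 FPKM in ND-1 to ND-3, and at 10411, 10048, 11722, 11540 and 11758 FPKM in HFD-1 to HFD-5. It took 3.30% to 4.02% of all gene counts. The 3 shallower HFD libraries lay above the ND range. As for Tfr2, the depth sets did not overlap, with at most 10411 FPKM in the deeper and at least 10484 in the shallower. The log2 fold change was 0.13 ± 0.15 (SE, adjusted p = 0.993 by edgeR), with a difference in log2 CPM of 0.00 within the deeper and 0.21 within the shallower set. With the depth set as a term in the edgeR fit, the diet value was 0.09 ± 0.15 (SE, adjusted p = 0.981).

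Ceruloplasmin, the copper ferroxidase of plasma, was the next most abundant. Cp (ENSRNOG00000011913, chromosome 2, 104744461 to 104799853) was at 800, 778 and 923 FPKM in ND-1 to ND-3, and at 984, 755, 780, 614 and 736 FPKM in HFD-1 to HFD-5. HFD libraries were both the highest and the lowest. Its log2 fold change was -0.12 ± 0.17 (SE, adjusted p = 0.993 by edgeR). By the mean FPKM over all 8 libraries the order of levels was Tf, Cp, Fth1, Ftl1, Hamp, Tfr2, Tfrc and Bmp6. Tf lay apart from Cp, Ftl1 from Hamp and Tfrc from Bmp6 in their ranges, and the other neighbours in this order overlapped. Hamp was above Tfr2 in 3 of 8 libraries only.

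The light chain of ferritin was the iron gene with the smallest p between the diets. Ftl1 (ENSRNOG00000020843, chromosome 1, 101448346 to 101449829) was at 347.5, 425 and 341 FPKM in ND-1 to ND-3, and at 564, 437, 593.5, 559 and 458 FPKM in HFD-1 to HFD-5. All 5 HFD libraries were above all 3 ND libraries, HFD-2 narrowly so, and Ftl1 was the 1 iron gene of which this held, where 2.25% of tested genes lie so. None of the iron genes had all HFD libraries below ND (1.65% of tested genes), so 1 of 8 did not overlap between the diets in either direction, against 3.89%. Means were 371 ± 46.9 FPKM (SD, n = 3) on ND and 522.5 ± 69.97 FPKM (SD, n = 5) on HFD. The log2 fold change was 0.48 ± 0.13 (SE), with a 95% interval of 1.13 to 1.72 in fold. Unadjusted p was 0.00553 and adjusted p 0.4945 by edgeR, so Ftl1 did not pass over all genes, and DESeq2 gave an adjusted p of 0.0785. The difference of mean log2 CPM was 0.47 in the deeper and 0.39 in the shallower libraries. The edgeR log2 fold change was 0.43 to 0.55 when 1 library was left out.

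Ftl1 shares its sequence with near-identical copies in the rat genome, so its own level is uncertain. The gene table describes 9 genes as ferritin light chain, and Ftl1 held 56.7% to 63.4% of their counts. The next largest was LOC100360087, at 137 ± 4.44 FPKM on ND and 188 ± 30.6 FPKM on HFD (log2 fold change 0.44, adjusted p = 0.600 by edgeR). All 5 HFD libraries were above ND, as for 2.25% of tested genes. Such copies can share reads with Ftl1, so the values of LOC100360087 are not an independent observation. Fitted log2 fold changes of the other tested copies ran from 0.04 to 0.68, at means of 1.39 to 13.7 FPKM. Summed over the 9 genes, ferritin light chain was at 347 ± 28.2 CPM on ND and 485 ± 60.4 CPM on HFD. The sum gave a log2 fold change of 0.47 (adjusted p = 0.438 by edgeR), a setting chosen after seeing the data.

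For the heavy chain the fitted difference was smaller, and this contrast of the chains was not tested. Fth1 (ENSRNOG00000022619, chromosome 1, 226030938 to 226033228) was at 535, 553 and 486 FPKM in ND-1 to ND-3, and at 529, 553, 624.6, 718 and 680 FPKM in HFD-1 to HFD-5. The 3 highest were HFD-4, HFD-5 and HFD-3, HFD-2 was level with ND-2, and HFD-1 was within the ND range. Its log2 fold change was 0.23 ± 0.14 (SE, adjusted p = 0.975 by edgeR). The difference of mean log2 CPM was 0.02 within the deeper and 0.34 within the shallower set, where ND-2 is the lone ND library. The ratio of Ftl1 to Fth1 in FPKM was 0.707 ± 0.0602 (SD, n = 3) on ND and 0.852 ± 0.156 (SD, n = 5) on HFD, and the ranges overlapped. It was highest in HFD-1, at 1.07, and HFD-5, at 0.674, fell within the ND range.

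Macrophages also hold ferritin. The 12 Kupffer cell markers, all found, summed to 313 to 446 FPKM on ND and 268.5 to 759 FPKM on HFD. HFD-3, with the highest Ftl1, had the highest sum, while HFD-1, with the second highest Ftl1, had the lowest. The part of Kupffer cells in the ferritin values was not tested further.

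The 2 genes named LOC100911874, whose description names the solute carrier family of ferroportin, are given under that name and not counted among the iron genes above. The first (ENSRNOG00000003872, chromosome 9, 52894365 to 52912293) was at 29.1 ± 4.67 FPKM (SD, n = 3) on ND and 27.4 ± 3.04 FPKM (SD, n = 5) on HFD. The second (ENSRNOG00000049995, chromosome 9, 52820683 to 52830457) was at 16.0 ± 2.05 and 15.4 ± 1.62 FPKM. Neither passed, with log2 fold changes of -0.09 and -0.06 (both adjusted p above 0.99 by edgeR), and without ND-2 these were 0.01 and 0.02. The pair rose and fell together over the libraries, and reads from sequence they share cannot be assigned to either with certainty.

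Other genes of iron, heme and copper handling were spread about 0 as well. Across 5 lists, that of hepcidin control included, 90 genes were tested, and 43 had higher and 47 lower fitted values. By edgeR 0 of the 90 passed, where 0.00707% of all tested genes did. An unadjusted p under 0.05 was found for 9 of the 90, a larger share than the 5.71% of all tested genes. The lists were not tested as sets. For iron uptake and use, 20 of 23 genes were tested, 8 higher and 12 lower in fitted value (median -0.06 on the log2 scale). The smallest p belonged to Steap4, a metalloreductase, at 14.7 ± 1.17 FPKM on ND and 11.2 ± 2.81 FPKM on HFD (log2 fold change -0.41, adjusted p = 0.871 by edgeR). Slc25a37, the mitochondrial iron importer, was at 6.90 ± 0.531 and 8.37 ± 1.34 FPKM. Cisd1, an iron-sulfur protein of the outer mitochondrial membrane, was at 74.0 ± 8.82 and 68.0 ± 4.08 FPKM.

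In the heme list 22 of 23 genes were tested, 14 with higher and 8 with lower fitted values (median 0.01). Of the 22, 4 had an unadjusted p under 0.05 by edgeR, 2 higher and 2 lower on HFD, against 5.71% of all tested genes. Pgrmc1, a heme-binding membrane protein, was at 405, 348 and 420 FPKM in ND-1 to ND-3 and at 678.5, 573, 553, 489 and 479 FPKM in HFD-1 to HFD-5. It had the smallest p of this list, and all HFD libraries were above ND, as for 2.25% of tested genes. The log2 fold change was 0.48 ± 0.15 (SE, unadjusted p = 0.00998, adjusted p = 0.596 by edgeR). Abcb10, a mitochondrial transporter needed for heme synthesis, was at 6.90 ± 1.19 and 5.53 ± 0.501 FPKM. Ppox, which catalyses the penultimate step of heme synthesis, was at 12.6 ± 3.02 and 9.54 ± 1.20 FPKM.

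Copper supply, on which ceruloplasmin depends, was covered by 12 tested genes, 6 with higher and 6 with lower fitted values (median -0.02). Atp7b, which loads copper onto ceruloplasmin, was at 11.0 ± 1.44 FPKM on ND and 8.69 ± 1.48 FPKM on HFD (log2 fold change -0.36, adjusted p = 0.856 by edgeR). Slc31a2, a copper transporter of endosomes, was at 5.03 ± 0.384 and 6.29 ± 0.580 FPKM (adjusted p = 0.832 by edgeR). It had the smallest p of this list, and all 5 HFD libraries were above ND, as for 2.25% of tested genes. Ccs, the copper chaperone of superoxide dismutase, was at 32.8 ± 5.56 and 40.2 ± 5.16 FPKM.

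The acute phase list was examined because inflammation raises hepcidin. Of 19 genes 18 were tested, with 5 higher and 13 lower in fitted value (median -0.10 on the log2 scale). Lbp, the plasma protein that binds bacterial lipopolysaccharide, was at 10.2, 11.1 and 9.45 FPKM in ND-1 to ND-3 and at 18.4, 17.6, 31.5, 20.7 and 22.0 FPKM in HFD-1 to HFD-5. It had the smallest p of this list, and every HFD library was above every ND library, as for 2.25% of tested genes. The log2 fold change was 1.09 ± 0.20 (SE). Lbp missed the threshold by edgeR (adjusted p = 0.121). It passed by DESeq2 (adjusted p = 0.000147), which called 0.708% of its tested genes. Cd14, a co-receptor for the same ligand, was at 11.1 ± 6.97 and 21.1 ± 6.25 FPKM (log2 fold change 0.89, adjusted p = 0.841 by edgeR). ND-3 was at 19.1 FPKM for Cd14 and the other ND libraries at 6.402 and 7.85, and the log2 fold change was 1.55 without ND-3 (adjusted p = 0.275 by edgeR) and 0.62 without ND-1. Fgb, a fibrinogen chain, was at 1580 ± 135 and 1359 ± 132 FPKM (log2 fold change -0.23, adjusted p = 0.975 by edgeR). Set beside Hamp, Lbp had the same order in HFD-5, HFD-4, HFD-1 and HFD-2, from high to low, and ND-3 was lowest for both genes. HFD-3, highest for Lbp, ranked 6 of 8 for Hamp, and ND-1, below every HFD library for Lbp, ranked 2 of 8.

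A second table gives long noncoding RNA (lncRNA) transcripts, and 4 of its 31243 transcripts overlap 3 of the iron genes. All 4 were tested and 0 passed by limma, where 0.0101% of 19799 passed; 0 of the 4 had an unadjusted p under 0.05, against 5.21%. NONRATT002642.2, which overlaps Ftl1 (chromosome 1, 101449123 to 101450028), was at 320 ± 30.4 FPKM (SD, n = 3) on ND and 418 ± 87.2 FPKM (SD, n = 5) on HFD. Its log2 difference was 0.36 ± 0.18 (SE, adjusted p = 0.963 by limma). NONRATT027987.2, within Tf, was at 0 to 17.2 FPKM and highest in ND-3. Strand use in counting is not stated, and reads of a gene and of an overlapping transcript cannot then be told apart.

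At the ceruloplasmin gene 2 transcripts divided the libraries by depth set. NONRATT015181.2 and NONRATT015182.2 span the same region (chromosome 2, 104783386 to 104803664). NONRATT015182.2 was at 33.0 FPKM in HFD-1, 12.0 in HFD-2, 16.8 in ND-1 and 10.9 in ND-3, the deeper libraries. In the shallower libraries it was at 240 FPKM in HFD-3, 252 in HFD-4, 217 in HFD-5 and 223 in ND-2. NONRATT015181.2 lay the other way, at 1074 to 1346 FPKM in the deeper and 587 to 860 FPKM in the shallower libraries.

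NONRATT015182.2 thus made up 0.802% to 2.47% of the summed FPKM of the pair in the deeper libraries and 21.4% to 30.01% in the shallower. A separation of the depth sets was seen for 10.4% of tested lncRNA transcripts. For 0.247% the sets were separated and their means of FPKM + 0.5 also lay at least 6-fold apart. That cut was not planned ahead of these values, so the share is a description only. The diet difference of NONRATT015182.2 was 1.33 ± 1.21 (SE, log2, adjusted p = 0.984 by limma), and 3 of 5 HFD but 1 of 3 ND libraries are shallow. Cp itself, as counted in the gene table, overlapped between the depth sets, at 755 to 984 FPKM in the deeper and 614 to 780 FPKM in the shallower.

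**Figure D5:**
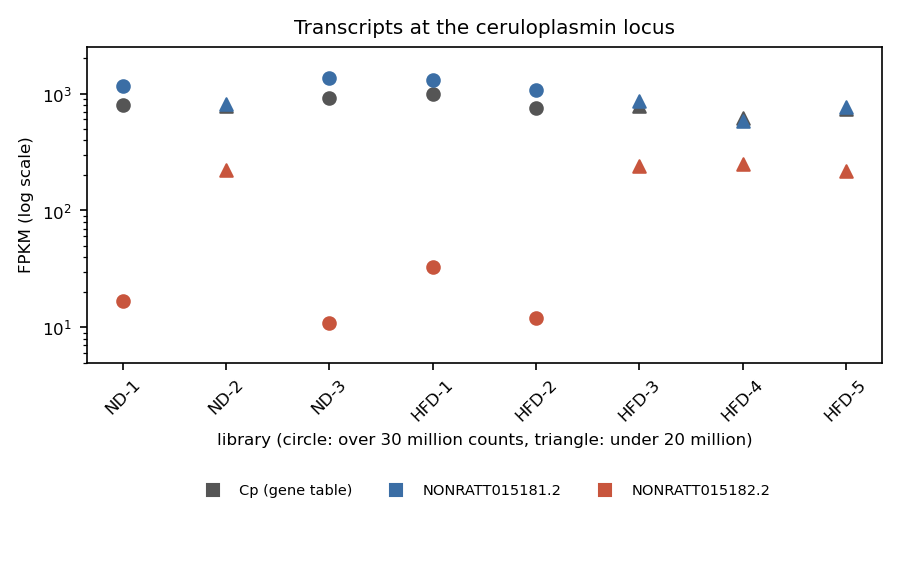
FPKM (vertical axis, log scale) of Cp in the gene table and of 2 lncRNA transcripts that overlap it, in each library (horizontal axis). Circles are the deeper and triangles the shallower libraries. NONRATT015182.2 lies at 10.9 to 33.0 FPKM in all circles and at 217 to 252 FPKM in all triangles.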

How the data were processed

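Liver RNA of 8 rats was sequenced after a TruSeq library preparation, per the labels' protocols. The submitters' processing notes name the build Rnor_6.0 and the tools Cuffdiff, Cufflinks 2.2.1 and TopHat2 2.0.9; strand use and annotation release are not given there. For each gene the authors deposited a raw count and an FPKM value, and for each lncRNA transcript an FPKM value. A further 12 value columns of the lncRNA table were not used. The iron genes and lists were chosen with earlier results of these data known.

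Counts of all genes were tested with edgeR 4.0.16 (TMM scaling, filterByExpr, quasi-likelihood test, diet as the only term) in R 4.3.3. For lncRNAs, limma 3.58.1 with a trended variance was run on log2(FPKM + 0.5) where at least 3 libraries reached 0.5 FPKM, a scale that understates changes of low transcripts. Tests were 2-sided, and Benjamini-Hochberg adjustment ran over all genes or transcripts tested, with 0.05 as the threshold. Levels are in FPKM, while fold changes of genes are fitted by edgeR. All 8 matched iron genes passed the filter. Alternatives were other scalings and filters, DESeq2 1.42.0, limma on FPKM, the replicate number, the depth set, leaving out libraries and, chosen after seeing the data, summing the ferritin light chain genes.

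Named genes were the iron genes, the 3 with the smallest p in each list, and the 5 nearest in pattern to Hamp and to Tfrc among genes with a mean of at least 1 FPKM. Others were named after their values were seen: Tmprss6, Hfe2, Fgl1, Fam132b, Bmp4, Socs3, Il6r, Id1, Atoh8, Smad6, LOC100360087, LOC100911874, Arntl and Fer1l5. Marker lists are given with their most abundant genes. Libraries of a diet differed by more than sampling noise (lowest chi-square per degree of freedom 25.2), and the p-values measure the spread between these libraries. Promoter sequences came from a RefSeq table of build GRCr8, and no coordinate was carried between builds.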

Additional observations from a re-analysis of the deposited data

Results flagged for a closer look

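Hamp in HFD-5, at 249.4 FPKM, lay far from the other HFD libraries, which ran from 25.5 to 64.8 FPKM. The gap to its nearest neighbour was 0.824 of the whole HFD range, above Dixon's critical value of 0.71 for 5 samples. On the log2 CPM scale the same gap was 0.604 of the range, below that value. The same check was made for 10 genes in the HFD group, and chance alone marks about 1 group in 20.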

How the results depend on the processing

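Over 18 alternatives for each of the 8 iron genes, 134 of 144 values kept their direction and side of the threshold, 10 changed sign and 0 passed; the lowest adjusted p was 0.0785, for Ftl1 by DESeq2. Hamp changed sign with limma on log2(FPKM + 0.5) (0.16) and log2(FPKM + 1) (0.14), and Bmp6 with the replicate block (-0.16). When 1 library was left out, values ran from -1.18 to 0.81 for Hamp, -0.40 to 0.10 for Tfrc, -0.12 to 0.04 for Tfr2, -0.05 to 0.24 for Bmp6, and -0.17 to 0.01 and -0.12 to 0.02 for the 2 LOC100911874 genes; causes were not tested. The number of genes called over the whole table, 1, became 18 with no filter, 126 with DESeq2, 5 with the depth set as a covariate, and 0 with limma on either FPKM scale and with the replicate block. It was 0 to 9 when 1 library was left out: 8 without ND-1, 2 without HFD-3, 9 without HFD-5, and 0 without ND-2, HFD-2 or HFD-4. DESeq2 called 1 gene of the wider lists, Lbp, where edgeR called 0. Counts of iron genes and of overlapping lncRNAs called stayed at 0 throughout. The replicate numbers did not pair the libraries (correlations of deviations 0.112, -0.275 and 0.073 for numbers 1 to 3). With the number as a block Hamp was at -0.83 and Ftl1 at 0.48 (adjusted p = 0.740 by edgeR). HFD-4 and HFD-5 have no ND library of their number, so they do not enter these diet values. A depth set term gave -0.67 for Hamp. With 3 ND libraries, and ND-2 alone among the shallower, a difference of the size of that in Ftl1 did not pass over all genes, and Bmp6 rests on at most 70 counts.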
